A study of Arabidopsis thaliana with 27 samples.

Results

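The 100 probe sets described here had higher signals in the lower than in the upper part of the Arabidopsis thaliana embryo at the globular, heart and torpedo stages. They were chosen by these measured values: for each of the 22746 probe sets of the ATH1 array that are no controls, the score was the smallest of 3 log2 differences, and the 100 highest scores were taken. The differences were globular basal minus apical, heart root pole minus cotyledon pole, and torpedo basal minus apical, each between group means of log2(signal + 10). 6 genes were left out of the choice by name, of which BBM alone would have entered (score 1.04, rank 17 over all probe sets), while AT5G35940, AT2G31390, AT2G26520, JKD and SDT had scores below 0. Because these differences made the choice, they are given below as descriptions, with no test.

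RNA came from laser-dissected tissue of Col-0 plants, the common laboratory accession, with no mutant or treatment in any group. The groups were globular basal and apical parts, heart root and cotyledon poles, torpedo basal and apical parts, and torpedo meristem, with 3 arrays each, and torpedo root and torpedo cotyledon, with 2 arrays each. In 2 further arrays the title and the tissue entry name opposite tissues, so they have no group. The labels tie no array to a plant or embryo, so a p-value here reflects the spread between arrays alone, which may be technical, and the small number of arrays limits the precision of every difference.

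In the plant embryo, cells of the upper part form the shoot meristem and the cotyledons, and cells of the lower part form the hypocotyl and the root, with the root stem cell niche where the embryo meets the suspensor. Auxin collects at the lower pole from early stages and, through its response factors, sets root identity there.

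Of the members, 54 pair with 1 gene in the platform's gene table, 4 with several genes, and 42 with none there. The 54 are 54 different genes, of which 50 are protein coding and 4 are pseudogenes by RefSeq (7.41%, against 6.83% of all 13513 single-gene probe sets). 7 carry a symbol other than a locus code: IQD16, TBL36, TUA1, IQD30, THO7, NCRK and ATCRT1. By locus code, 19 lie on chromosome 5, 11 on chromosome 1, 9 on chromosome 2, 8 on chromosome 3 and 7 on chromosome 4. In the same order, these chromosomes hold 22.5%, 25.8%, 16.5%, 20.5% and 14.7% of all single-gene probe sets placed by locus code. 99 of the 100 reached a signal of 50 on at least 2 of the 25 grouped arrays and entered the tests below.

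Scores ran from 0.68 to 2.16 with a median of 0.83, whereas the median score of all probe sets was -0.61. The globular difference had a median of 0.99 over the members and 0.06 over all probe sets. The heart difference had a median of 1.20 over the members and -0.28 over all probe sets. The torpedo difference had a median of 1.12 over the members and 0.15 over all probe sets. The globular stage gave the smallest difference of 44 members, the torpedo stage of 35 and the heart stage of 21. At the lower edge of the choice, AT2G44360 had a score of 0.69 and both 259358_at and AT4G32605 had 0.68, while AT1G01500, AT4G26230 and 250141_at just outside it also had 0.68.

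**Figure D1:**
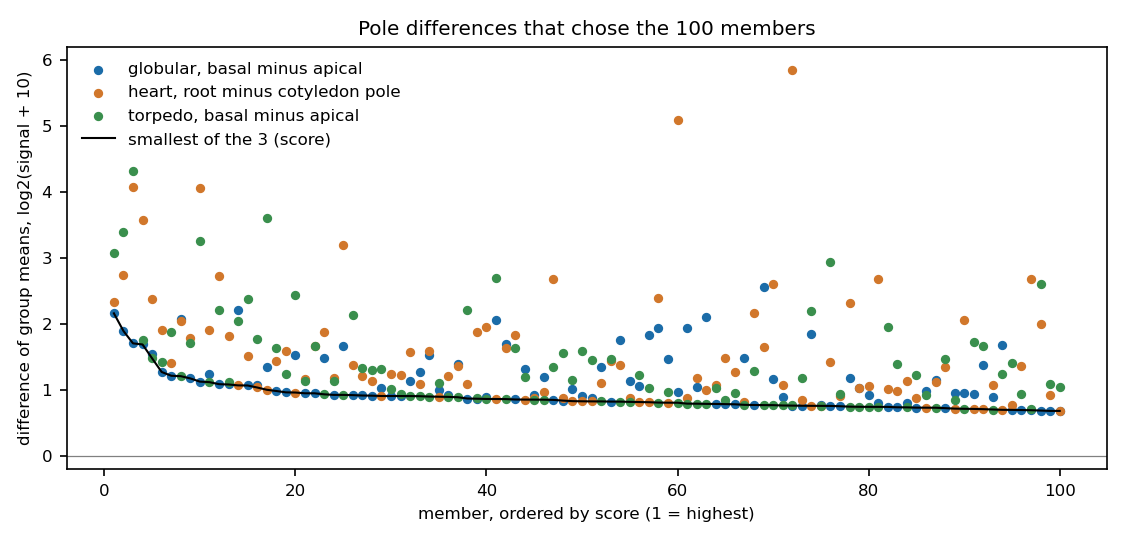
Log2 difference between lower and upper captures at each stage (points) for the 100 members ordered by score, with the score as a line. The line falls from 2.16 to 0.68 and is nearly flat after the first members, and single stages of some members reach far above it, up to 5.85 at the heart stage.

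The replicate arrays of these probe sets spread widely. The pooled within-group SD of the log2 signal had a median of 1.07 over the members at the globular stage, 1.34 at the heart stage and 0.883 at the torpedo stage, against 0.739, 0.905 and 0.741 over all probe sets. The pole difference exceeded that SD in 55, 47 and 72 members at the 3 stages, and exceeded it 2-fold in 9, 16 and 23. Every basal array was above every apical array in 18 members at the globular stage, in 17 at the heart stage and in 37 at the torpedo stage. Over all probe sets that held for 5.1%, 1.85% and 6.93%; the choice used these contrasts, so nothing is read from the shares. In no member did the groups separate at all 3 stages (0.0% of all probe sets), in 12 they separated at 2, in 48 at 1 and in 40 at none. The mean upper signal was below 50 in 51 members at the globular stage, in 62 at the heart stage and in 68 at the torpedo stage. The mean lower signal was at least 50 in 86, 83 and 76. In captured tissue, fewer cells of a type and less RNA per cell cannot be told apart.

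IQD16 belongs to the IQD family, whose proteins bind calmodulin and associate with microtubules. It had signals of 839.9, 140.8 and 85.8 in globular basal captures, against 150.6, 56.2 and 12.5 in globular apical captures. At the heart stage it was at 289.5, 1031.1 and 194.0 at the root pole, against 28.5, 175.8 and 19.6 at the cotyledon pole. The torpedo basal captures gave 384, 173 and 573, against 6.23, 24.6 and 55.4 in torpedo apical captures. The groups overlapped at the globular stage and separated at the other 2. Its log2 differences were 1.89, 2.74 and 3.39 in stage order. In the meristem captures it was at 152, 4.73 and 207, with 1 array far below the others.

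IQD30, another member of the family, had a score of 0.82. Its signals were 69.9, 108.3 and 80.0 in globular basal captures, against 18.2, 41.5 and 95.7 in globular apical captures. The heart stage gave 191.6, 322.0 and 36.4 at the root pole, against 54.8, 23.3 and 62.1 at the cotyledon pole. In both stages at least 1 upper array lay inside the range of the lower ones. The torpedo groups separated, with 193, 151 and 110.2 in basal and 44.8, 30.9 and 73.4 in apical captures. Of 11 IQD probe sets with a name on the array these 2 are members, and 4 in all have a score above 0.

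TUA1 encodes an alpha-tubulin, a building block of microtubules. It had 153.8, 121.4 and 22.2 in globular basal captures, against 9.3, 54.1 and 62.4 in globular apical captures. At the heart stage it had 73.9, 46.6 and 77.3 at the root pole, against 28.3, 9.8 and 17.6 at the cotyledon pole. In torpedo basal captures it had 28.7, 143 and 15.2, against 4.33, 2.41 and 18.2 in torpedo apical captures. Here the heart groups were the ones that separated. TUA1 reached its highest signal in the meristem captures, with 413, 52.0 and 70.6. The other named alpha-tubulin on the array, TUA6, had a score of -1.73.

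TBL36 is one of the TRICHOME BIREFRINGENCE-LIKE proteins, a family that acts in the O-acetylation of cell wall polysaccharides. Its globular signals were 52.0, 709.0 and 226.5 in basal captures, against 181.1, 68.6 and 10.2 in apical captures. At the heart stage they were 819.9, 1903.3 and 108.9 at the root pole, against 6.1, 112.3 and 9.7 at the cotyledon pole. At the torpedo stage they were 398, 428 and 741 in basal captures, against 18.0, 28.1 and 5.62 in apical captures. The torpedo groups lay more than 10-fold apart without overlap, while 1 lower array lay inside the upper range at each earlier stage. The 3 differences were 1.71, 4.08 and 4.33. Among 22 named TBL probe sets TBL36 is the only member, and TBL38 is the only other with a score above 0 (0.08).

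AT4G02620, listed by RefSeq with the synonym of subunit F of the vacuolar proton pump, was among the brightest members. It had 12743.8, 1375.7 and 9928.2 in globular basal captures, against 579.8, 4272.5 and 2881.3 in globular apical captures. At the heart stage it had 1471.5, 73.3 and 388.6 at the root pole, against 566.9, 35.9 and 57.3 at the cotyledon pole. Torpedo basal captures had 506, 3174 and 868, against 671, 669 and 470 in torpedo apical captures. The groups overlapped at every stage, and its torpedo difference of 0.90 was the smallest of the 3.

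THO7, a subunit of the THO complex that links transcription to mRNA export, had 197.3, 4.8 and 14.7 in globular basal captures, against 2.9, 6.7 and 5.9 in globular apical captures. At the heart poles and in torpedo basal and apical captures this THO7 probe set stayed at or below 33.7. Another probe set named THO7, 258624_at, is no member, with differences of -0.86, -2.28 and 0.63 in stage order. NCRK, a receptor-like kinase, had 195.3, 112.5 and 7.5 at the heart root pole, against 4.6, 11.4 and 5.5 at the heart cotyledon pole, its largest difference (2.17). ATCRT1 had 116, 78.8 and 169 in torpedo basal captures, against 39.7, 66.9 and 31.4 in torpedo apical captures, which separated, whereas its globular and heart groups overlapped.

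**Figure D2:**
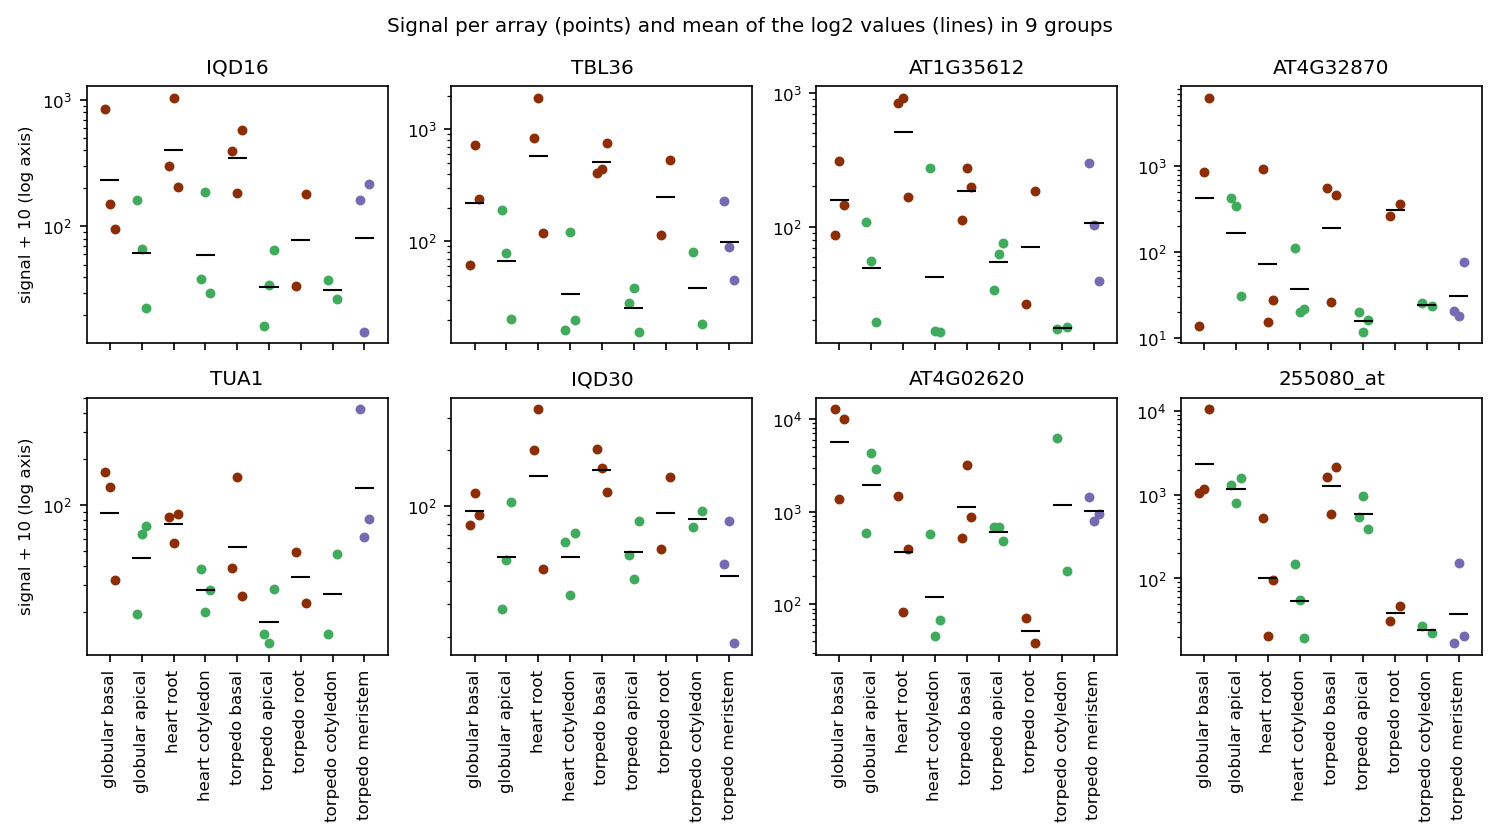
Signal plus 10 on a log axis for 8 members in 9 groups, with lower captures in brown, upper captures in green and meristem in purple; points are arrays and lines are means of the log2 values. Replicates of IQD16, TBL36 and AT4G32870 spread over 10-fold within some groups, and AT4G02620 lies lower in torpedo root than in torpedo cotyledon captures.

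The highest score belonged to 258299_at, which has no gene in the table, with 12.2, 1423.7 and 15.2 in globular basal captures, against 4.9, 9.9 and 20.2 in globular apical captures. Its globular mean thus rests on globular basal 2. AT1G35612, a pseudogene by RefSeq, had 835.9, 908.9 and 156.9 at the heart root pole, against 264.9, 6.6 and 6.5 at the heart cotyledon pole, and separated at the torpedo stage alone (103, 266 and 189.8 basal, 23.9, 52.3 and 65.2 apical). AT3G62480, another pseudogene, had 39.4, 4.41 and 64.5 in torpedo basal captures, against 0.62, 1.95 and 1.81 in torpedo apical captures. It separated at the globular and torpedo stages at signals that were near the floor on most arrays. AT5G38170 was the brightest of the named members, with 40975.4, 15919.4 and 36565.4 in globular basal captures, against 12267.2, 13888.1 and 14571.6 in globular apical captures. At the torpedo stage it had 11301, 21403 and 14106 in basal captures, against 3999, 2296 and 3713 in apical captures, again without overlap. AT1G47540 had 6353, 2375 and 4064 in torpedo basal captures, against 112, 498 and 1134 in torpedo apical captures. At the globular stage AT1G47540 was no higher than 429.9 on any array.

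AT5G39090 had 94.7, 122.7 and 112.7 at the heart root pole, against 33.8, 41.6 and 24.4 at the heart cotyledon pole, and separated at the torpedo stage too. AT2G45860 had 228.9, 168.8 and 461.7 in globular basal captures, against 113.4, 95.9 and 120.2 in globular apical captures. It separated at the heart stage as well, but its torpedo mean rests on basal 5, with 68.1, 1258 and 126 in basal captures, against 112, 142 and 142 in apical captures. These 2 genes were picked after their values were seen, from the 12 members that separated at 2 stages. Torpedo basal 5 also carries AT1G13970 at the torpedo stage, with 1.67, 759 and 32.7 in basal captures, against 12.8, 19.1 and 1.85 in apical captures. AT4G32870 varied widely between replicates, with 3.9, 847.2 and 6290.5 in globular basal captures, against 411.6, 335.8 and 20.8 in globular apical captures. AT5G25470 was highest at the heart root pole, with 306.2, 1192.7 and 332.0, against 90.7, 20.7 and 44.3 at the heart cotyledon pole, which separated. AT5G11600 and AT4G27652 separated at the globular stage, the first with 81.2, 65.6 and 68.0 in basal and 24.7, 39.5 and 37.4 in apical captures. AT4G27652 had 70.2, 122.2 and 160.0 in globular basal captures, against 26.9, 37.5 and 46.9 in globular apical captures. AT5G34460 (score 0.95) and AT5G14790 (0.91) were also among the first 20 single-gene members. AT1G77200 (0.89) was too, although it is the 1 member that missed the filter, since 91.6 in globular basal 1 was its single signal of 50 or more on the 25 grouped arrays.

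Single arrays weighed on the choice. Torpedo basal 5 was the highest of the 3 torpedo basal arrays in 60 members, against 21 for basal 4 and 19 for basal 6. In 21 members it was at least 3 times as high as both others, which held for basal 4 in 5 members and for basal 6 in 3. These counts were not taken over all probe sets, so they are not particular to the members. All probe sets also had their highest median log2 signal there, 5.93 against 5.36 and 5.52 on basal 4 and 6. Relative to that median the members were at 0.86 and 1.03 on basal 4 and 6, and at 1.11 on basal 5. The same array had a summed signal of 1570 over 9 endosperm marker probe sets, against 165 and 141 on basal 4 and 6 and 168 to 319 on the torpedo apical arrays. Most of that sum came from DME, at 874 in one of its 3 probe sets, whereas the endosperm gene AGL62 was at most 16.1 on any torpedo basal array. Over 2 seed coat markers the array had 459, against 65.2 and 32.2 on basal 4 and 6 and 21.1 to 49.6 on the apical arrays; DFR made up most of it and BAN was at most 16.3. Torpedo meristem 1 was higher on both lists, at 1625.5 and 672.9, and torpedo root 3 had 1046.3 over the endosperm markers. No member is on either list. No listed marker was at 0 on torpedo basal or apical arrays, which does not show that it was expressed there. The part of these markers in the members' values was not tested. When torpedo basal 5 was left out, 64 of the 100 members were chosen again and 95 kept a score above 0.

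Leaving out each of the 18 arrays in turn kept between 61 (without heart cotyledon 2) and 87 (without torpedo apical 4) members among the 100 highest scores, and 64 without globular basal 3. Between 87 and 100 members kept a positive score in these runs. IQD16, TBL36, AT1G35612, 253041_at and 267357_at were chosen in all 18 runs, and 31 members in at least 16. The arrays treated as standing apart were heart cotyledon 2 and torpedo basal 5. Heart cotyledon 2 had the lowest median correlation with other arrays among the 18, at 0.365. Torpedo basal 5 did not stand apart by this measure, at 0.516 against 0.531 and 0.544 on basal 4 and 6. Its high member signals are described above. Without both arrays, 51 members were chosen again.

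**Figure D3:**
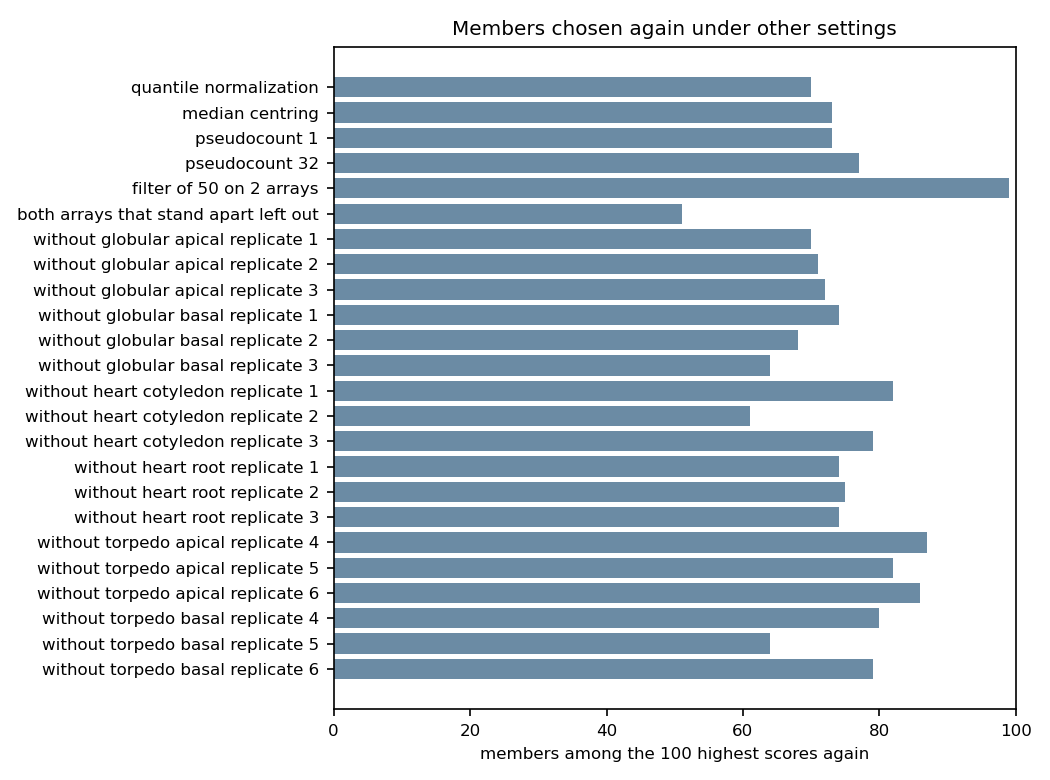
Number of the 100 members that are again among the 100 highest scores (bars) under other scalings and pseudocounts and without single arrays. The bars run from 51 without both arrays that stand apart to 99 with the filter on low signals.

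The torpedo root and torpedo cotyledon captures, which the choice did not use, give a separate comparison of a lower with an upper organ. In limma's fit across all probe sets, 0 of the 99 tested members passed an adjusted p of 0.05, and 2 of all 20890 did (0.00957%). At an unadjusted p under 0.05, 3 members were higher in root (7.7% of all probe sets) and 4 were lower (4.04%). The difference was positive in 47 of the 99 members, with a median of -0.18, whereas 61.3% of all probe sets were positive, with a median of 0.35. The members' median turned to 0.52 without torpedo cotyledon 3 (59 positive), to 0.07 without torpedo root 1 (53 positive) and to 0.10 with the contradicting arrays added by title (55 of 100 positive). Over all probe sets the median was 0.50 (65.1% positive), 0.21 (54.8%) and 0.37 (63.5%) in the same order. After median centring the members' median was -0.47, with 37 positive, against 0.06 and 52.0% over all probe sets. In 22 members both root arrays were above both cotyledon arrays (26.3% of all probe sets), and in 15 both were below (9.87%). Of the 37 members that separated between torpedo basal and apical parts, 8 also separated with root higher, 5 with root lower and 24 overlapped. Among all probe sets that separated between torpedo basal and apical parts, root was higher without overlap in 28.2% and lower in 7.87%.

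**Figure D4:**
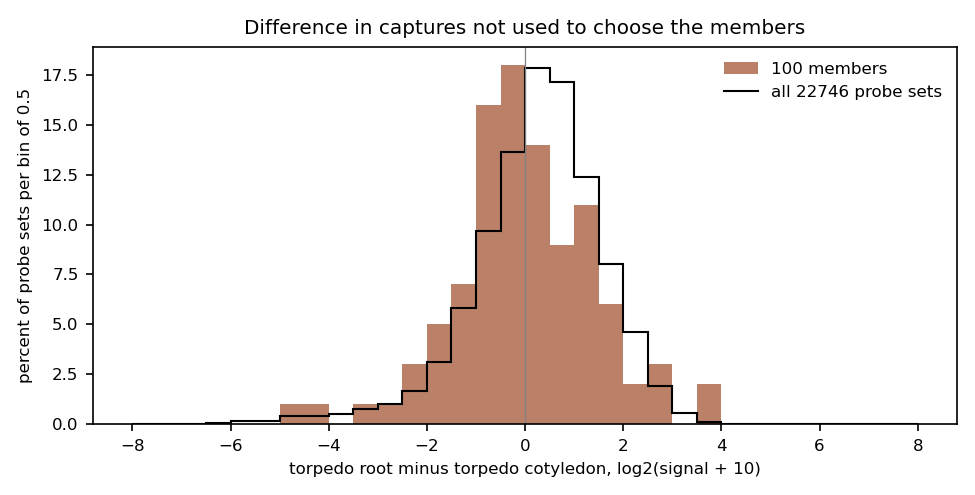
Share of probe sets (percent per bin of 0.5) by the log2 difference torpedo root minus torpedo cotyledon, for the 100 members (filled) and all 22746 probe sets (line). The members centre just below 0 and all probe sets just above it.

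In this comparison 16 of the 20 members with the highest scores had a positive difference, with a median of 1.30 and a range from -2.13 to 3.67. Of the 29 tested members in places 21 to 50, 14 were positive (median -0.18), and of the 50 in places 51 to 100, 17 were (median -0.30). This grouping was made after the values were seen and has no test. TBL36 had 105.0 and 518.7 in root, against 70.7 and 8.1 in cotyledon captures, which differed by 2.69 (SE 1.30, limma adjusted p = 0.425). IQD16 had 23.6 and 171.8 in root, against 27.4 and 16.9 in cotyledon captures, with overlap (1.30, SE 1.28, adjusted p = 0.752). The sign held in all 16 alternatives for TBL36 and in all 15 for IQD16. The difference ran from 1.59 to 3.79 for TBL36 and from 0.08 to 2.52 for IQD16.

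AT4G32870 had the highest difference among the single-gene members, with 253.9 and 352.8 in root and 15.4 and 13.4 in cotyledon captures (3.67, SE 1.94, limma adjusted p = 0.486). AT3G60650 had 107.3 and 174.1 in root, against 1.0 and 3.0 in cotyledon captures (3.62, SE 1.31, adjusted p = 0.262). AT3G29060 had 45.2 and 239.5 in root, against 7.2 and 7.5 in cotyledon captures (2.76, SE 0.96, adjusted p = 0.237). In each of these 3 genes both root arrays were above both cotyledon arrays, and none passed the threshold. AT3G53980 (2.00), AT1G35612 (1.99), AT2G37070 (1.53) and AT1G62870 (1.35) followed TBL36 among the single-gene members. Smaller positive differences were seen in AT5G11600 (1.19), AT1G13970 (0.67), AT5G34460 (0.60) and AT3G62480 (0.50), with limma adjusted p-values of 0.753 to 0.928.

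AT4G02620, the proton pump subunit gene, was the lowest member, with 61.3 and 27.9 in root and 6168.9 and 217.0 in cotyledon captures (-4.51, SE 1.54, limma adjusted p = 0.231). AT1G02110 (-2.61), AT5G08560 (-2.19), AT5G38170 (-2.13) and AT1G54290 (-1.51) were the next lowest single-gene members, followed among the named genes by AT5G25470 (-1.37) and AT5G14790 (-1.15). AT5G38170 had 130.9 and 1884.8 in root, against 19824.0 and 249.4 in cotyledon captures, so its cotyledon arrays differed more than the organs. IQD30 (0.11), TUA1 (0.37), THO7 (1.11), NCRK (0.94) and ATCRT1 (-0.41) had limma adjusted p-values of 0.700 to 0.974. The other THO7 probe set, 258624_at, had a difference of -0.10. Of the 32 members that the rule for named genes takes and that have a value here, 15 kept their sign in all alternatives, 10 positive and 5 negative, and none passed in any.

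Relative to the median of all probe sets, the members' median was 0.45 to 1.11 on the lower arrays used in the choice, and -1.03 to -0.30 on the upper ones. On the torpedo root arrays it was -0.65 and -0.08, against -0.29 and 0.30 on the torpedo cotyledon arrays. The 2 torpedo root arrays had the lowest median correlations with the others among the grouped arrays, 0.364 and 0.295. Heart cotyledon 2 (0.365) and torpedo meristem 1 (0.369) were close to the first. The log2 ratio of 3' to 5' actin probe sets was -1.40 and -1.18 on the torpedo root arrays, against 1.80 and 1.08 on the torpedo cotyledon arrays. It was -1.75 to 0.51 on the globular, -1.80 to 1.85 on the heart and 2.39 to 5.07 on the torpedo basal and apical arrays. The same ratio of GAPDH was -2.61 on torpedo root 1 and 5.53 on torpedo root 3, against 6.26 and 5.04 on the torpedo cotyledon arrays. A list of 10 shoot pole and leaf polarity genes summed to 1407 and 822.6 in torpedo root, against 725.2 and 1695.3 in torpedo cotyledon captures, so it did not separate these organs. The same list summed to 249 to 536 in torpedo basal and 1148 to 1782 in torpedo apical captures, and to 398.2 to 503.5 at the heart root pole and 569.6 to 1986.9 at the heart cotyledon pole. At the globular stage its sums overlapped, at 474.4 to 864.9 in basal and 637.7 to 1000.3 in apical captures. The 9 endosperm marker probe sets summed to 688.7 and 1046.3 in torpedo root, against 478.4 and 302.4 in torpedo cotyledon captures. Of these 9, 8 had a positive difference (median 1.19), where 61.3% of all probe sets did. The 9 are not all different genes, since DME has several of them, at 1.13, 1.35 and -1.40. The part of array quality or of these markers in the members' low values in torpedo root was not tested.

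**Figure D5:**
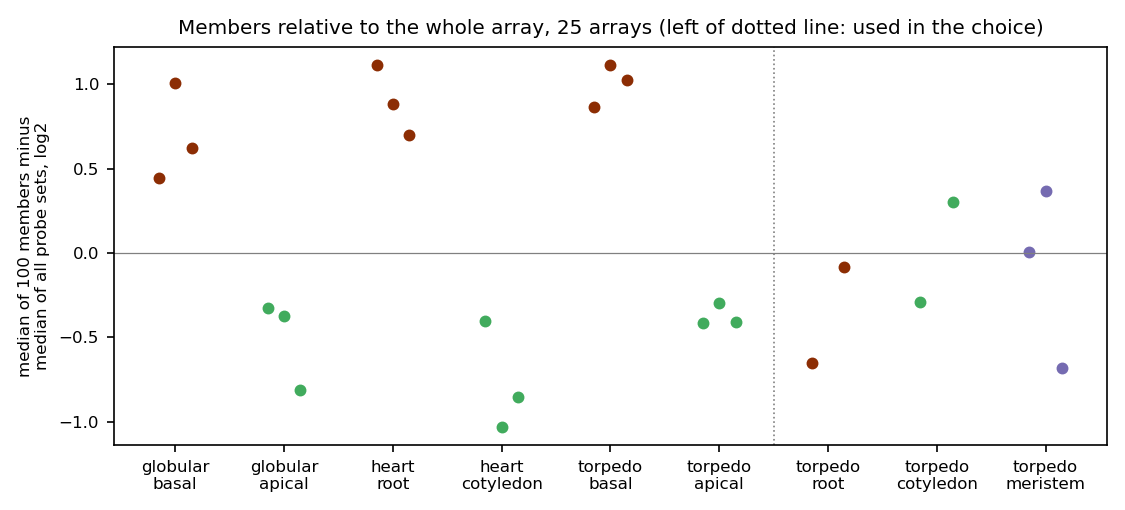
Median log2 signal of the 100 members minus that of all probe sets on each of 25 arrays, with lower captures in brown, upper in green and meristem in purple. The groups left of the dotted line made the choice. Right of it the torpedo root arrays lie at -0.65 and -0.08, overlapping with the torpedo cotyledon arrays at -0.29 and 0.30.

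The torpedo meristem arrays took no part in the choice either. Relative to all probe sets the members' median was 0.00, 0.37 and -0.68 on the 3 arrays, a range that holds all 4 values of the torpedo root and cotyledon arrays.

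The level of the members over both poles was compared between stages. This measure differs from the pole differences that made the choice but comes from the same 18 arrays, so it is not independent of it. In limma's fit, heart minus globular had a median of -0.21 over 99 members and -0.23 over all probe sets, and after median centring 0.08 over the members and 0.06 over all. 2 members passed an adjusted p of 0.05, both lower at the heart stage, where 0.0622% of all probe sets were called lower. One was 255080_at, which has no gene in the table. It had 515.3, 10.6 and 85.8 at the heart root pole and 139.3, 45.4 and 9.4 at the heart cotyledon pole, against 1056.4, 1160.1 and 10572.4 in globular basal and 1288.9, 793.0 and 1590.2 in globular apical captures. Every heart array was below every globular array, a difference of -4.50 (SE 0.75, limma adjusted p = 0.00437). This call was lost when only these stages entered the fit (adjusted p = 0.157) and held in 22 of 23 alternatives, over which the adjusted p ran from 0.000623 to 0.157.

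The other was 248823_s_at, which pairs with several genes and is therefore uncertain. It had 58.6, 29.7 and 31.8 at the heart root pole and 0.4, 29.5 and 16.8 at the heart cotyledon pole, against 563.3, 213.9 and 1580.1 in globular basal and 764.0, 191.9 and 110.4 in globular apical captures. The stages did not overlap (-3.59, SE 0.66, limma adjusted p = 0.0151). The call was lost without globular apical 1, without globular basal 3, with a pseudocount of 1 and with only these stages in the fit, and the adjusted p ran from 0.00336 to 0.166 over 23 alternatives. AT4G02620 was also low at the heart stage (-3.97, adjusted p = 0.0959) and AT1G47540 high (3.80, adjusted p = 0.370), without passing. AT4G02620 was called in 4 of 23 alternatives: with array weights and without globular basal 2, heart cotyledon 1 or heart root 1, and its adjusted p ran from 0.0266 to 0.424.

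Torpedo minus heart, over the basal and apical parts and both heart poles, had a median of -0.20 over the members and -0.24 over all probe sets. It shares the heart arrays with the comparison above, and the torpedo apical and basal values were deposited unrounded, unlike the heart values. 1 member was called higher, where 0.862% of all probe sets were, and none lower. This was again 255080_at, with 1609, 574 and 2178 in torpedo basal and 536, 952 and 384 in torpedo apical captures (3.55, SE 0.75, limma adjusted p = 0.0172). In the other torpedo captures it was at 21.1 and 37.2 in root, 16.8 and 12.0 in cotyledon, and 6.76, 143 and 10.8 in meristem, all below every torpedo basal and apical array. The log2 actin 3' to 5' ratio was 2.39 to 5.07 on the torpedo basal and apical arrays, against -1.80 to 1.85 on the heart arrays, and -1.55 to 2.58 on the other torpedo arrays; its part in this call was not tested. The call was lost without heart cotyledon 3, heart root 2, torpedo apical 4, torpedo apical 5, torpedo basal 4 or torpedo basal 6, and the adjusted p ran from 0.00124 to 0.0631 over 22 alternatives.

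Gene lists for embryo patterning were measured thinly under a name, and no member is on any of them. Of 42 root pole genes listed 3 were named on the array, CLE40, a root stem cell signal peptide, CR4, a receptor kinase, and LHW, a vascular transcription factor. Their pole differences were positive in 3 of 3 at the globular stage and in 2 of 3 at the heart and torpedo stages and in torpedo root against cotyledon. Their summed signal overlapped between lower and upper captures at each stage, so these 3 genes do not check the label of the lower captures. Of 11 auxin genes 8 were positive at the globular stage, 4 at the heart stage, 8 at the torpedo stage and 8 in torpedo root against cotyledon. In the last comparison 61.3% of all probe sets were positive. The 3 stage medians were 0.18, -0.38 and 0.28, against 0.06, -0.28 and 0.15 over all probe sets. The largest torpedo differences of these genes were apical, at -4.75 for GH3.3 and -2.82 for YUC4. In the tests above GH3.3, an enzyme gene of auxin conjugation, was the 1 of the 11 called, higher at the torpedo than at the heart stage. None of the 3 root pole genes or the 10 shoot pole genes passed in any of the 3 tests.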

How the data were processed

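The deposited table holds probe set intensities of 27 arrays on a linear scale, produced by MAS5, as the submitters' processing notes record; its version and settings and the genome build are not stated in these sources. The intensities deposited by the authors average 100 on every array once 2% of values at either end is trimmed; they were treated as scaled and not normalized again. A pseudocount of 10 was added before log2, which understates changes at low signal. Control probe sets (64) did not enter. The model was limma 3.58.1's (R 4.3.3; 1 mean per group, 25 arrays, eBayes with intensity trend), run on the 20890 probe sets that reached 50 on at least 2 arrays, 2-sided, with Benjamini-Hochberg adjustment over all of them and a threshold of 0.05. The fit was tested on simulated data.

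Groups come from titles. The 2 arrays whose title and tissue entry contradict each other entered as alternatives only. SE is the fit's standard error.

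Genes were named from the platform's gene table, updated through RefSeq TAIR10.1 (13436 matched); 8730 probe sets have no gene there and 503 several. The build of the values is not named, so no coordinates are given, and no sequence was used here. Of the single-gene members 7 of 54 have a word name, so a grouping by name was void.

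Named with values were the 20 single-gene members with the highest scores, those with a symbol, those past a threshold, the 8 highest and 5 lowest single-gene members in torpedo root minus cotyledon, and those at the edge of the choice; AT5G39090, AT2G45860, 258299_at, 253041_at, 267357_at, 266300_at and 248722_at were added after their values were seen. Symbols shared by an unrelated gene (FDH, CHI) were taken off the gene lists. The members, gene lists and tests were chosen with earlier results of these data known. Alternatives were other scalings, pseudocounts, filters, no trend, array weights, fewer groups, a replicate block, other groupings of the contradicting arrays, each array left out and, added after seeing the data, both arrays that stand apart left out. Same-numbered arrays did not deviate together throughout (correlations -0.117 to 0.379), so the numbers were not taken as pairs.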

Additional observations from a re-analysis of the deposited data

Results flagged for a closer look

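In 5 members the torpedo captures gave opposite orders: every basal array was above every apical array, which the choice itself favours, while both root arrays were below both cotyledon arrays. Over all probe sets that separated between torpedo basal and apical parts, this held for 7.87%, and 37 members separated there. The torpedo root minus cotyledon differences were -2.61 for AT1G02110, -1.66 for 266300_at, -1.51 for AT1G54290, -1.20 for 248722_at and -1.16 for 267357_at on the log2 scale. The difference between the pairs of captures was not tested. AT1G02110 had 25.3 and 45.1 in root, against 71.5 and 883.0 in cotyledon captures, and 164, 547 and 179 in torpedo basal, against 119, 163 and 139 in torpedo apical captures. 267357_at, one of the 5 members chosen in all 18 runs that left out an array, had 44.8 and 29.1 in root, against 93.1 and 93.8 in cotyledon captures.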

How the results depend on the processing

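For torpedo root against cotyledon, where 2 probe sets were called, quantile normalization, a pseudocount of 1 and the replicate block each gave 1, and the count was 55 with a pseudocount of 32, 5 without the intensity trend and 0 with array weights or with only these groups. It was 83 with the contradicting arrays added by title, 0 with them added by tissue, and 0 to 86 without single arrays (86 without torpedo cotyledon 3, 0 without torpedo root 1 or 3). No member was called in any of these. The members' median of -0.18 ranged from -0.15 to 0.52 without single arrays (0.52 without torpedo cotyledon 3), where 45 to 59 of them were positive; it was -0.38 after quantile normalization and -0.47 after median centring, with 37 positive in each, 0.10 with the contradicting arrays added by title, and with only these groups 25 of 60 were positive. Over all probe sets the median of this comparison, 0.35, ranged from 0.21 to 0.50 without single arrays. Heart against globular, with 15 calls, had 43 with array weights, 5 with only these groups, 26 without both arrays that stand apart, 16 with the replicate block and 14 to 50 without single arrays. Its 2 member calls became 1 with a pseudocount of 1, 0 with only these groups and 1 to 3 without single arrays. Torpedo against heart, with 264 calls, had 151 after quantile normalization, 532 with a pseudocount of 1, 2486 with array weights and 72 to 857 without single arrays. Its 1 member call became 2 with a pseudocount of 1, 5 with array weights and 0 to 4 without single arrays. Of the members, 70 were chosen again after quantile normalization, 73 after median centring or with a pseudocount of 1, 77 with a pseudocount of 32, 51 without both arrays that stand apart and 61 to 87 without single arrays. The causes were not tested. The replicate block changed no member's call; it was not run for torpedo against heart, whose arrays share no numbers. No called difference changed sign.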

Other observations

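The 2 arrays whose labels contradict each other were measured against the members without a group. The members' median relative to all probe sets was 0.05 on the array titled cotyledon and -0.40 on the array titled root. Their median correlations with the grouped arrays were 0.625 and 0.340 in the same order.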
